A study of Mus musculus with 10 samples.

Results

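The Slc25 genes encode the mitochondrial carriers, the largest family of solute transporters in mammals, and their transcripts were examined in mouse hearts labelled control or Prdm16 knockout. Members were the genes whose symbol is Slc25a followed by a number, with Slc25a20 left out, which gave 46 of the 46977 genes listed at 12 months. At 3 months 36 of the 46 had a mean of at least 1 FPKM (fragment counts divided by transcript length and library size) over the libraries and were tested, and at 12 months 38 were. At 3 months Slc25a30 lay just above that line with a mean of 1.06 FPKM and Slc25a27 just below it with 0.982 FPKM. At 12 months Slc25a27 lay just above it with 1.29 FPKM and Slc25a31 just below it with 0.571 FPKM. RNA-seq was done on dissected hearts of 4 groups: control hearts aged 3 months (3 libraries), Prdm16 knockout hearts aged 3 months (3 libraries), control hearts aged 12 months (2 libraries) and Prdm16 knockout hearts aged 12 months (2 libraries). No treatment is named for any group. The sources used here name neither the strain, nor the deleted part of Prdm16, nor the promoter of any Cre. Prdm16 is a transcriptional regulator with zinc fingers, studied above all in brown adipocytes, and the title of the series names cardiac hypertrophy and mitochondrial dysfunction, which is the question the genotype comparison addresses.

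Carriers of this family sit mostly in the inner mitochondrial membrane, where each moves a narrow set of metabolites, nucleotides or cofactors between the cytosol and the matrix, often in exchange for another. The heart depends on the ADP/ATP and phosphate carriers to feed ATP synthase and export ATP, and on the oxoglutarate and aspartate/glutamate carriers for the malate-aspartate shuttle, which moves reducing power from cytosolic NADH into the matrix. A few members act elsewhere, such as Slc25a17 in peroxisomes and Slc25a46 in the outer mitochondrial membrane.

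Some libraries stood apart, and sex-linked and marker genes differed between the labels. Prdm16 measured 1.44, 2.23 and 1.61 FPKM in the 3-month controls and 1.43, 0.760 and 2.03 FPKM in the knockout-labelled libraries, and the groups overlapped (log2 difference -0.22, adjusted p = 0.602 by limma). At 12 months it measured 6.31 and 5.05 FPKM in the controls and 4.02 and 3.58 FPKM in the knockout-labelled libraries, both lower (log2 difference -0.47, adjusted p = 0.340 by limma). With overlap at 3 months and no call at either age, the RNA level does not check the labels. Groups are called by label throughout. The spread of log2 ratios over all genes tested (a robust SD) was 0.113 between the 12-month controls and 0.416 between the 12-month knockout-labelled libraries, with knockout replicate 2 farther from the controls (0.440 and 0.443) than replicate 1 (0.276 and 0.272). At 3 months knockout replicate 2 was 0.284 and 0.314 from the other 2 knockout-labelled libraries, which were 0.145 apart. The 3-month controls were 0.286, 0.243 and 0.233 from each other. Knockout replicate 2 was 0.372, 0.505 and 0.405 from those controls, and the other 2 knockout-labelled libraries 0.220 to 0.298. At 12 months Xist measured 33.1 and 31.04 FPKM in the controls against 0.0911 and 0.0240 FPKM in the knockout-labelled libraries. The Y-linked Ddx3y measured 0.0352 and 0.0114 FPKM against 24.5 and 20.7 FPKM. Sex and genotype therefore cannot be told apart at that age, for any gene. All 6 libraries of 3 months held Ddx3y at 16.5 FPKM or more. Cardiomyocyte markers (8 of 8 tested at each age, none at 0) summed to 28164 to 35014 FPKM in controls and 36172 to 37652 FPKM in knockout-labelled libraries at 3 months, and to 64404 to 64485 and 67172 to 69504 FPKM at 12 months. Of these markers 5 were estimated higher and 3 lower at 3 months, and 4 higher and 4 lower at 12 months, with 0 called at either age. The higher sums were thus not shared by the whole list. Erythroid markers summed to 828 to 1123 against 2095 to 3126 FPKM at 3 months and to 10728 to 10863 against 1989 to 2187 FPKM at 12 months, and atrial markers to 718 to 6231 against 12340 to 28731 FPKM and to 6205 to 6368 against 13701 to 15946 FPKM. Of the 7 atrial markers tested at each age 6 were estimated higher at 3 months (1 called, median log2 difference 2.20), while at 12 months 3 were higher and 4 lower (0 called, median -0.69), so the higher sum at that age was not shared by the list. Airway lining markers summed to 14.3 to 38.7 FPKM in the 3-month controls and 0.151 to 0.364 FPKM in the knockout-labelled libraries (3 of 3 tested were lower, 2 called), and at 12 months none was tested and 4 of 5 were at 0 in every library. Lymphocyte markers summed to 1.55 to 2.44 against 7.14 to 10.5 FPKM at 3 months (3 of 3 tested were higher, 2 called) and to 3.08 to 3.37 against 0.990 to 3.61 FPKM at 12 months (1 tested, lower, not called). The part of these markers in the carrier values was not tested. The labels do not state that each library is a separate animal. The p-values then measure only how far these libraries spread, which may be technical, and in whole-heart RNA fewer cells of a type cannot be told apart from less RNA per cell.

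In level, the ADP/ATP carrier Slc25a4 stood far above every other member. This gene (annotated on chromosome 8, 46206797 to 46211284, minus strand, GENCODE M21 on GRCm38) encodes the heart and muscle form of the carrier that exchanges ADP for ATP. It measured 3616, 3634 and 3006 FPKM in the 3-month controls and 3811, 3711 and 3732 FPKM in the knockout-labelled libraries, and it made up 61.8% to 64.6% of the summed FPKM of the family in each library. At 12 months it measured 3004 and 2916 FPKM in the controls and 3022 and 3371 FPKM in the knockout-labelled libraries, or 54.7% to 57.5% of the family. The phosphate carrier Slc25a3 came second at both ages, at 987 to 1167 FPKM and 1013 to 1096 FPKM, and its libraries did not overlap with those of Slc25a4 or of the third member. At 3 months the oxoglutarate carrier Slc25a11 (249 to 312 FPKM) and the second ADP/ATP carrier Slc25a5 (229 to 284 FPKM) followed, with ranges that overlapped each other and lay above those of Slc25a39, Slc25a12 and Slc25a34. At 12 months the aspartate/glutamate carrier Slc25a12 (275 to 370 FPKM) and Slc25a11 (274 to 326 FPKM) overlapped each other and lay above Slc25a5 (155 to 189 FPKM), which in turn lay above Slc25a39 (80.8 to 124 FPKM). Below these the ranges of neighbours in the order mostly overlapped. The ages come from separate tables and library preparations, so their levels are set side by side and not compared.

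**Figure D1:**
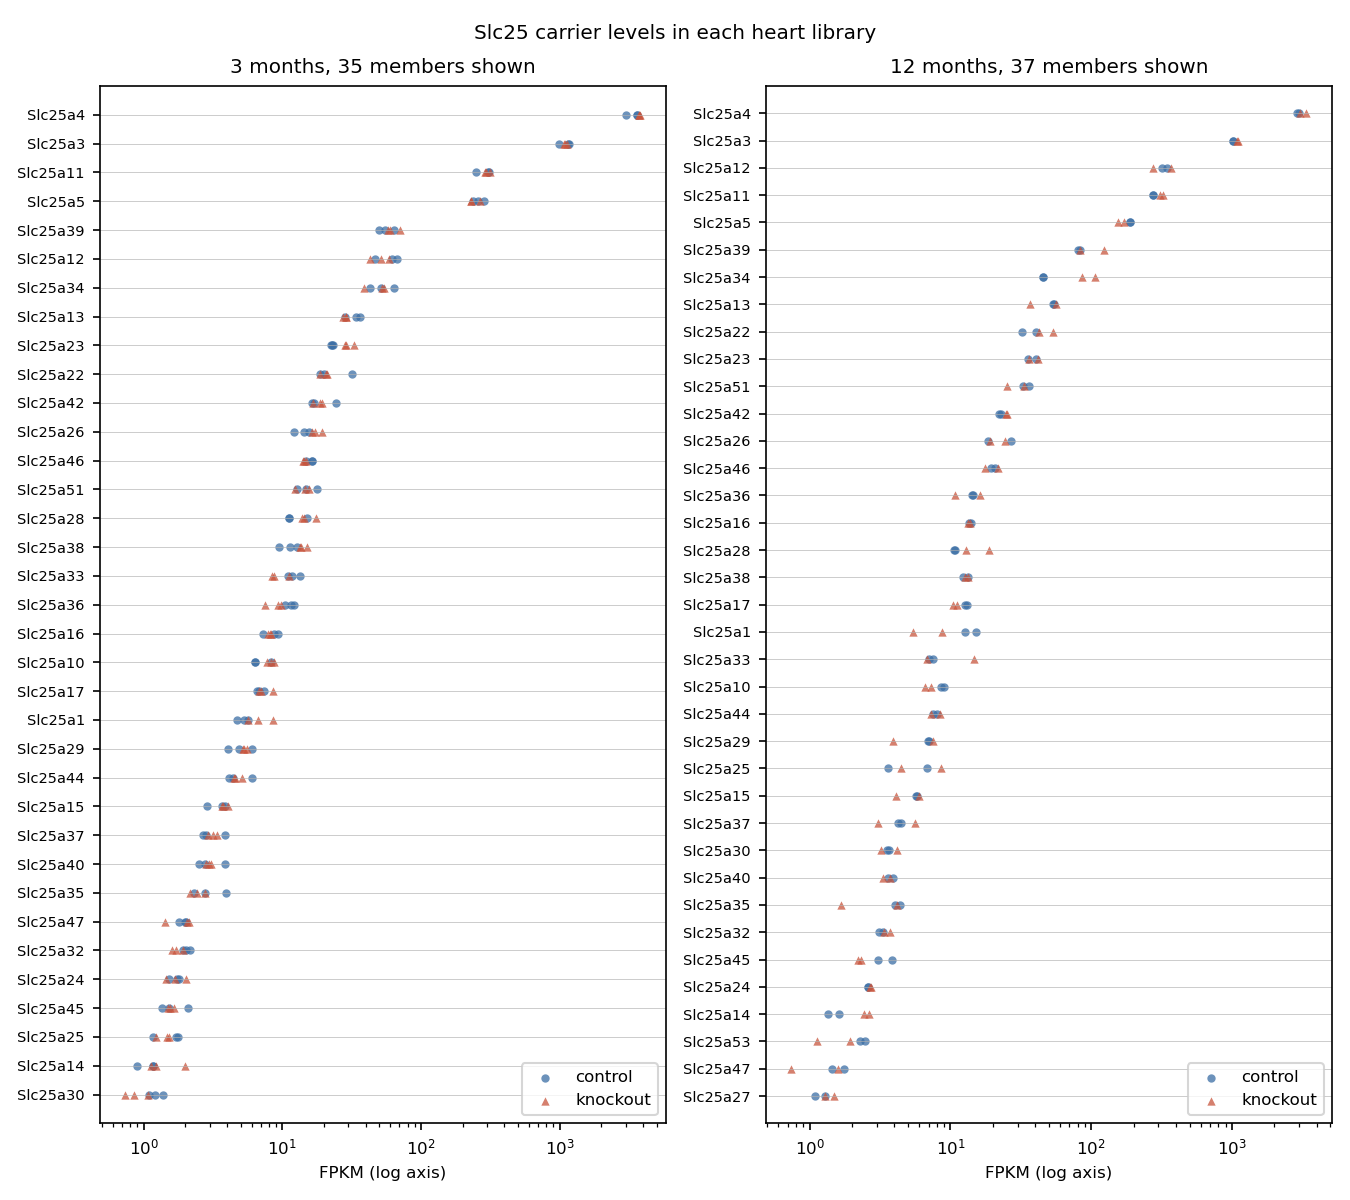
FPKM (log axis) of Slc25 members with a mean of at least 1 FPKM, 35 shown at 3 months (left) and 37 at 12 months (right), ordered by mean level; each circle is 1 control library and each triangle 1 knockout-labelled library. Slc25a4 (3006 to 3811 FPKM at 3 months, 2916 to 3371 at 12 months) and Slc25a3 stand above the rest at both ages, and the libraries of Slc25a34 and Slc25a1 separate by label at 12 months.

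The remaining members were low or at 0. At 3 months 10 members were under the line, at 12 months 8. Slc25a54 was listed at 0 in every library, and Slc25a2, Slc25a18, Slc25a21, Slc25a41 and Slc25a48 stayed at or under 0.135 FPKM in each one. Slc25a43 ran from 0.0841 to 0.350 FPKM over both ages, and at 3 months Slc25a53 ran from 0.356 to 0.861 FPKM and Slc25a27 from 0.531 to 1.42 FPKM. Slc25a31, an ADP/ATP carrier best known from the testis, measured 0.573, 0.8897 and 0.792 FPKM in the 3-month controls and 0.178, 0.0806 and 0.381 FPKM in the knockout-labelled libraries. All of its controls were higher, which is a description below the tested range, and at 12 months it measured 0.508 and 0.652 against 0.572 and 0.553 FPKM, with overlap.

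No member passed the test at either age. The test was limma on log2(FPKM + 1) over all genes tested, with Benjamini-Hochberg adjustment, and a gene was called at an adjusted p under 0.05. At 3 months 0 of 36 members were called, where 91 of 12200 genes (0.746%) were, and 5 members had an unadjusted p under 0.05 (13.9%, against 18.2% of all genes). At 12 months 0 of 38 members were called, where 52 of 13179 genes (0.395%) were, and 4 members had an unadjusted p under 0.05 (10.5%, against 13.6%). Estimates ran from -0.33 to 0.38 at 3 months, with a lowest adjusted p of 0.167, and from -0.93 to 1.06 at 12 months, with a lowest adjusted p of 0.145. The 95% interval of the log2 difference lay within 1 on either side of 0 for 36 of 36 members at 3 months and for 29 of 38 at 12 months. That bound is on the log2(FPKM + 1) scale. For members of low level it does not exclude a 2-fold difference in FPKM.

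The median difference of the family was within 0.1 of 0 at both ages and changed sign when some libraries were left out. At 3 months 16 members were estimated higher and 20 lower (13 to 22 higher with 1 library left out, most without control replicate 2), with a median log2 difference of -0.03 beside 0.09 over all genes tested, of which 65% were higher. With libraries rescaled by median-of-ratios size factors or to TPM (each library's FPKM scaled to 1 common total), 12 members were higher and 24 lower, with medians of -0.10 and -0.12 beside 0.00 over all genes. At 12 months 18 were higher and 20 lower, with a median of -0.03 beside 0.01 (15 to 24 higher with 1 library left out, most without knockout replicate 2), and TPM scaling moved the median of all genes to -0.27 and that of the family to -0.32, with 6 higher and 32 lower. Libraries of the 2 groups did not overlap for 7 of 36 members at 3 months (4 higher, 3 lower, 19.4%) beside 24.7% of all genes (20.1% higher, 4.6% lower), and for 18 of 38 at 12 months (11 higher, 7 lower, 47.4%) beside 50.3% (27.3% higher, 23% lower). The 3 lower at 3 months include Slc25a30, which passed the filter on low values only through the controls. The summed FPKM of the family was 5791, 5870 and 4866 in the 3-month controls against 5907, 5801 and 5775, and 5340 and 5289 in the 12-month controls against 5524 and 5860. As a share of all FPKM in its library the family held 0.600% and 0.589% in the 12-month controls and 0.516% and 0.5004% in the knockout-labelled libraries, so the sum and the share differed in opposite directions at that age. The summed FPKM of all genes was 890181 and 897425 in those controls and 1070017 and 1171104 in those knockout-labelled libraries. At 3 months the share was 0.860%, 1.14% and 0.727% in the controls and 0.922%, 0.807% and 0.922% in the knockout-labelled libraries. Control replicate 2 of that age had a sum over all genes of 516272 FPKM, beside 626492 to 718787 FPKM in the other libraries.

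**Figure D2:**
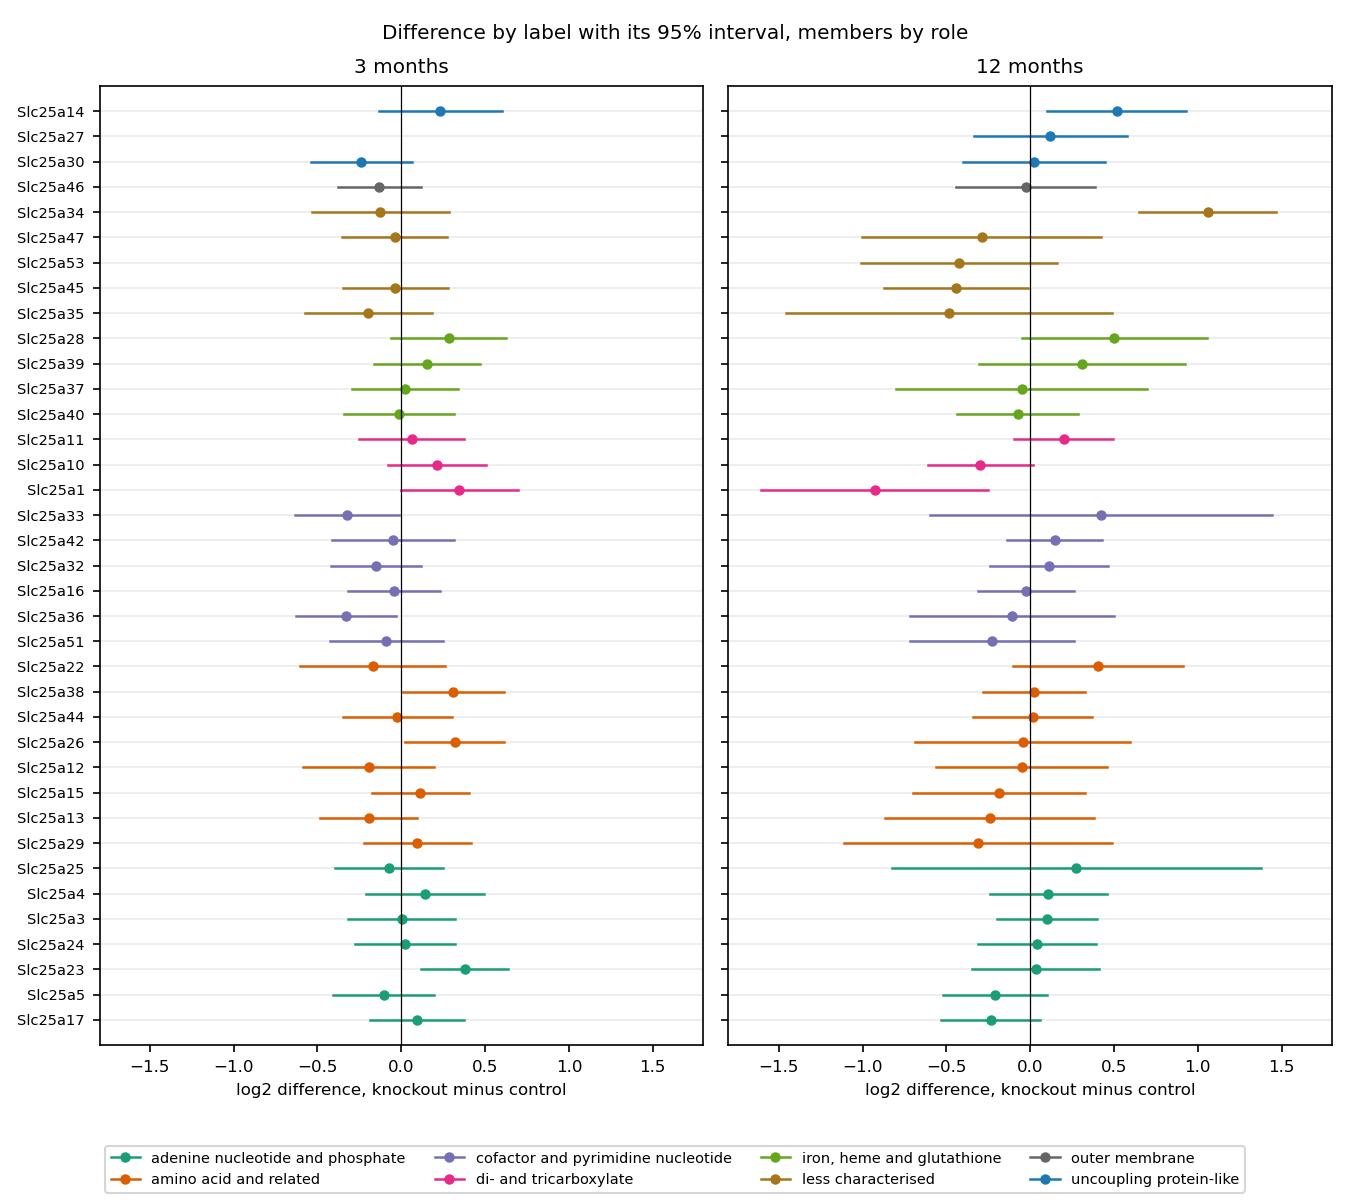
Log2 difference, knockout-labelled minus control, with its 95% interval from limma for the tested members shown (35 and 37, horizontal axis), grouped and coloured by role, at 3 months (left) and 12 months (right). Estimates at 3 months lie between -0.33 and 0.38, while at 12 months Slc25a34 (1.06) and Slc25a1 (-0.93) lie outermost on either side.

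Among carriers of adenine nucleotides and phosphate, 7 members were tested at each age, and 5 were estimated higher and 2 lower at both, with medians of 0.02 and 0.04. This 5 to 2 split became 3 to 4 at 3 months with either rescaling and 1 to 6 at 12 months with TPM. It was 3 to 4 without knockout replicate 2 at 3 months, and at 12 months without knockout replicate 1 or control replicate 1. The 3 ADP/ATP carriers share a signature in the coding sequence by which such carriers are recognised, shown here because reads of Slc25a4 and Slc25a5 have to be told apart by their sequence. The capitals mark the 6 codons of that signature in the GENCODE M21 coding sequences. The whole stretch printed, with its lower-case flanks, spans coding bases 697 to 726 of 897 in Slc25a4 and Slc25a5 and 736 to 765 of 963 in Slc25a31, 5′ to 3′.
Slc25a4: actgttCGTCGTAGGATGATGATGcagtct
Slc25a5: acggttCGCCGTCGTATGATGATGcagtct
Slc25a31: acagttAGAAGACGTATGATGATGcagagt
The coding sequences of Slc25a4 and Slc25a5 were identical at 695 of 897 aligned bases (77.5%), with a longest identical run of 20 bases. No 50-base stretch of the Slc25a4 transcripts occurred in a transcript of another gene, while 555 of 1191 stretches of Slc25a5 (46.6%) occurred in transcripts of 9 other genes, the pseudogene Slc25a5-ps among them. The level of Slc25a5 therefore depends on how such reads were counted, and is uncertain.

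Slc25a4 was 3419 ± 357 FPKM (SD, n = 3) in the 3-month controls and 3751 ± 52.6 FPKM in the knockout-labelled libraries, with all knockout-labelled libraries above the controls. Its log2 difference was 0.14 (SE 0.15, adjusted p = 0.666 by limma), and at 12 months 0.11 (SE 0.13, adjusted p = 0.716), where TPM scaling turned it to -0.22. Slc25a5, on the X chromosome (36795651 to 36798807, plus strand), measured 284, 258 and 239 against 229, 266 and 230 FPKM at 3 months, with overlap, and 187 and 189 against 155 and 171 FPKM at 12 months, with both knockout-labelled libraries lower. Its log2 differences were -0.11 and -0.21, with adjusted p of 0.709 and 0.485 by limma. The ratio of Slc25a4 to Slc25a5 was 12.6 to 14.1 in the 3-month controls and 14.0 to 16.6 in the knockout-labelled libraries, and 15.4 and 16.03 against 19.5 and 19.7 at 12 months. Slc25a23, a carrier that exchanges ATP-Mg for phosphate under calcium control, had the lowest p of the family at 3 months. It measured 23.4, 22.8 and 22.4 FPKM in the controls and 28.3, 33.2 and 28.9 FPKM in the knockout-labelled libraries, so the groups did not overlap. The ratio of means was 1.32 and the log2 difference 0.38 (SE 0.11, 95% interval 0.12 to 0.64, adjusted p = 0.167 by limma), and 0.31 without knockout replicate 2. At 12 months its libraries overlapped at 35.8 and 40.8 against 42.0 and 36.4 FPKM. Slc25a17, the peroxisomal carrier of adenine nucleotides and cofactors, measured 13.1 and 12.7 against 10.5 and 11.2 FPKM at 12 months (log2 difference -0.24, adjusted p = 0.433), without overlap, and overlapped at 3 months. Slc25a3, Slc25a24 and Slc25a25 had estimates of 0.00, 0.02 and -0.08 at 3 months and 0.10, 0.04 and 0.27 at 12 months. For Slc25a25, an ATP-Mg/phosphate carrier, the 2 libraries of a label were as far apart as 3.62 and 6.81 FPKM in the 12-month controls and 8.63 and 4.48 FPKM in the knockout-labelled libraries.

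Carriers of cofactors and pyrimidine nucleotides were estimated lower in 7 of 7 members at 3 months, under both rescalings as well, with a median of -0.09, and 0 were called. The count was 4 of 7 without control replicate 2, 5 without knockout replicate 2 and 6 without control replicate 1. At 12 months 3 were higher and 4 lower, with a median of -0.03, and TPM scaling gave 1 and 6. Slc25a36, a pyrimidine nucleotide carrier (chromosome 9, 97074961 to 97111157, minus strand), measured 10.4, 12.1 and 11.5 FPKM in the 3-month controls and 9.24, 7.52 and 9.85 FPKM in the knockout-labelled libraries, all of which were lower. Its log2 difference was -0.33 (SE 0.13, adjusted p = 0.232 by limma), and -0.23 without knockout replicate 2. Slc25a33, the other pyrimidine nucleotide carrier, measured 13.3, 11.8 and 11.1 against 11.2, 8.77 and 8.45 FPKM, so that 1 knockout-labelled library reached into the controls (log2 difference -0.32, adjusted p = 0.259). Of its 50-base stretches 12.6% occurred in another gene's transcripts. Slc25a32, which carries folate and FAD, measured 2.18, 2.02 and 1.94 against 1.92, 1.70 and 1.61 FPKM, without overlap and with a log2 difference of -0.15 (adjusted p = 0.524). Slc25a42, which carries coenzyme A, was the highest of the group at 3 months and overlapped at 16.3, 24.3 and 17.0 against 18.8, 16.8 and 19.2 FPKM. In the 12-month libraries it measured 22.3 and 22.9 against 24.7 and 25.4 FPKM, with both knockout-labelled libraries higher and a log2 difference of 0.15 (adjusted p = 0.565) that TPM scaling turned to -0.17. The NAD carrier Slc25a51 and Slc25a16, linked to coenzyme A, overlapped at both ages, with estimates of -0.09 and -0.04 at 3 months and -0.23 and -0.03 at 12 months.

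Carriers of di- and tricarboxylates had 3 tested members, all estimated higher at 3 months (median 0.21), where 1 of them, Slc25a11, turned to -0.04 with either rescaling and without control replicate 3. At 12 months 1 was higher and 2 lower (median -0.30), and with TPM all were lower. Slc25a1, the citrate carrier, which supplies the cytosol with citrate for acetyl-CoA (chromosome 16, 17925223 to 17928219, minus strand), had the lowest estimate of any member at 12 months. It measured 12.8 and 15.3 FPKM in the controls and 5.39 and 8.69 FPKM in the knockout-labelled libraries, and both of the latter were lower. The ratio of means was 0.502 and the log2 difference -0.93 (SE 0.25, 95% interval -1.61 to -0.25, adjusted p = 0.275 by limma). Without knockout replicate 1 the difference was -0.63 and without replicate 2 it was -1.23. At 3 months its order was the other way, with 4.68, 5.68 and 5.31 FPKM in the controls and 5.63, 8.60 and 6.73 FPKM in the knockout-labelled libraries, a slight overlap and a log2 difference of 0.35 (SE 0.15, adjusted p = 0.276), or 0.21 without knockout replicate 2. Slc25a10, the dicarboxylate carrier, measured 6.37, 8.24 and 6.37 against 8.70, 7.72 and 8.26 FPKM at 3 months, with overlap (log2 difference 0.21, adjusted p = 0.407). It measured 8.95 and 8.54 against 7.23 and 6.64 FPKM at 12 months, without overlap (log2 difference -0.30, adjusted p = 0.385). Slc25a11, the abundant oxoglutarate/malate carrier, measured 306, 311 and 249 FPKM in the 3-month controls and 296, 312 and 290 FPKM in the knockout-labelled libraries, with overlap (log2 difference 0.06, adjusted p = 0.849). It measured 276 and 274 FPKM in the 12-month controls and 307 and 326 FPKM in the knockout-labelled libraries. Both of those were higher, with a log2 difference of 0.20 (adjusted p = 0.482) that TPM scaling turned to -0.12.

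Carriers of amino acids and related compounds were estimated higher in 4 of 8 tested members at 3 months (median 0.04) and in 3 of 8 at 12 months (median -0.05, and 1 of 8 with TPM). With 1 library left out 3 to 6 were higher at 3 months, most without control replicate 2, and 2 to 7 at 12 months, most without knockout replicate 2. Slc25a26, which imports the methyl donor S-adenosylmethionine, measured 14.4, 15.5 and 12.1 FPKM in the 3-month controls and 16.4, 19.2 and 17.3 FPKM in the knockout-labelled libraries. All of the latter were higher, with a log2 difference of 0.32 (SE 0.13, adjusted p = 0.244 by limma), and at 12 months the libraries overlapped at 26.8 and 18.5 against 19.1 and 24.4 FPKM. Slc25a38, the glycine carrier needed for heme synthesis, measured 12.7, 11.4 and 9.41 against 13.6, 15.0 and 13.4 FPKM at 3 months, again without overlap (log2 difference 0.31, SE 0.13, adjusted p = 0.265). Without knockout replicate 2 these differences were 0.26 for both genes. At 12 months Slc25a38 overlapped at 12.3 and 13.3 against 13.3 and 12.7 FPKM. Slc25a12 and Slc25a13 are the calcium-sensitive aspartate/glutamate carriers, and Slc25a12 is the form of heart and brain. Slc25a12 overlapped at both ages, at 61.6, 67.5 and 46.8 against 51.2, 42.8 and 58.7 FPKM and at 318 and 344 against 370 and 275 FPKM. It exceeded Slc25a13 in every library, by 1.55 to 2.05 times at 3 months and by 5.98 to 7.45 times at 12 months, in tables that were made separately. Slc25a22, a glutamate carrier, measured 32.4 and 40.2 against 42.9 and 54.0 FPKM at 12 months, without overlap (log2 difference 0.41, adjusted p = 0.432, and 0.24 without knockout replicate 2). Slc25a29, a carrier of basic amino acids, measured 7.10 and 6.97 against 7.49 and 3.94 FPKM at 12 months, so that the knockout-labelled libraries lay on either side of the controls (log2 difference -0.31, adjusted p = 0.651, and -0.70 without replicate 1 and 0.08 without replicate 2). Slc25a44, which carries branched-chain amino acids, and the ornithine carrier Slc25a15 had estimates of -0.02 and 0.11 at 3 months and 0.01 and -0.18 at 12 months.

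Carriers of iron and glutathione were estimated higher in 3 of 4 members at 3 months (2 of 4 with either rescaling) and 2 of 4 at 12 months (1 of 4 with TPM). With 1 library left out 2 to 4 were higher at 3 months and 2 or 3 at 12 months. Slc25a39, a glutathione carrier, measured 55.0, 64.1 and 50.1 against 58.0, 70.7 and 59.8 FPKM at 3 months, with overlap (log2 difference 0.15, adjusted p = 0.589). It measured 83.0 and 80.8 against 83.2 and 124 FPKM at 12 months, so the excess lay in 1 library (log2 difference 0.31, adjusted p = 0.570, -0.01 with TPM, and 0.02 without knockout replicate 2). Slc25a28, or mitoferrin 2, the iron importer of most tissues, measured 11.2, 15.0 and 11.1 against 14.4, 17.6 and 14.0 FPKM at 3 months (log2 difference 0.28, adjusted p = 0.356, and 0.18 without knockout replicate 2), with overlap. At 12 months it measured 10.8 and 10.7 FPKM in the controls and 13.0 and 18.7 FPKM in the knockout-labelled libraries, both higher (47.8% higher in the mean, log2 difference 0.50, SE 0.20, adjusted p = 0.393). The difference was 0.75 without knockout replicate 1 and 0.25 without replicate 2. Slc25a37, or mitoferrin 1, is best known from developing red cells, and it averaged 3.12 against 3.16 FPKM at 3 months and 4.35 against 4.32 FPKM at 12 months. Erythroid markers were higher at 3 months (7 of 7 tested, 5 called) and lower at 12 months (7 of 7, 6 called) in the same libraries, and their part in the levels of Slc25a37, Slc25a38 and Slc25a39 was not tested. In the 12-month knockout-labelled libraries Slc25a37 measured 5.61 and 3.04 FPKM, on either side of the controls at 4.23 and 4.48 FPKM, and 10.1% of its 50-base stretches occurred in transcripts of other genes. Slc25a40, the close relative of Slc25a39, had estimates of -0.02 and -0.07.

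The uncoupling protein-like members were low. Slc25a14, a carrier of the X chromosome (48623413 to 48662294, plus strand) also known from the brain, measured 1.36 and 1.61 FPKM in the 12-month controls and 2.43 and 2.66 FPKM in the knockout-labelled libraries. Both of those were higher, with a ratio of means of 1.72 and a log2 difference of 0.51 on the log2(FPKM + 1) scale (SE 0.15, 95% interval 0.10 to 0.93, adjusted p = 0.303 by limma). It was 0.56 without knockout replicate 1 and 0.47 without replicate 2. At 3 months it measured 1.16, 0.891 and 1.16 against 1.14, 2.00 and 1.23 FPKM, with overlap (log2 difference 0.23, adjusted p = 0.471, and 0.08 without knockout replicate 2). Slc25a30 measured 1.10, 1.37 and 1.21 against 0.859, 0.738 and 1.08 FPKM at 3 months, all lower in the knockout-labelled libraries (log2 difference -0.24, adjusted p = 0.371 by limma). Its means at that age were 1.23 FPKM in the controls and 0.892 FPKM in the knockout-labelled libraries. It passed the filter on low values only through the controls, so this difference is not read as a result. At 12 months Slc25a30 measured 3.64 and 3.54 against 4.15 and 3.24 FPKM, with overlap. Slc25a27, a member related to the uncoupling proteins and best known from the brain, was under the tested line at 3 months. At 12 months it measured 1.29 and 1.10 against 1.28 and 1.49 FPKM, with overlap (log2 difference 0.12, adjusted p = 0.757, and -0.06 with TPM). Slc25a46, the outer-membrane member linked to mitochondrial shape, measured 16.5, 16.5 and 14.9 against 14.4, 14.1 and 14.9 FPKM at 3 months and 19.3 and 20.6 against 17.5 and 21.9 FPKM at 12 months, with overlap at both ages and log2 differences of -0.13 and -0.03 (adjusted p of 0.550 and 0.947 by limma).

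Members of less certain substrate held the largest estimate of the family. Slc25a34 (chromosome 4, 141618824 to 141623821, minus strand) encodes a carrier related in sequence to fungal oxaloacetate carriers. It measured 45.5 and 45.6 FPKM in the 12-month controls and 86.0 and 107 FPKM in the knockout-labelled libraries. Both knockout-labelled libraries were higher, and the controls were nearly equal. The ratio of means was 2.12 and the log2 difference 1.06 (SE 0.15, 95% interval 0.65 to 1.47, adjusted p = 0.145 by limma). The exact permutation test over 2 against 2 libraries cannot go below 0.3333, and over 3 against 3 not below 0.1. Without knockout replicate 1 the log2 difference was 1.22 (adjusted p = 0.0132) and without replicate 2 it was 0.90 (adjusted p = 0.0271), fits in which the lone knockout-labelled library is assumed to vary like the controls and in which 4208 (31.9%) and 613 (4.65%) of all genes were called. At 3 months Slc25a34 overlapped at 51.7, 64.1 and 43.2 against 54.0, 39.1 and 52.0 FPKM (log2 difference -0.12, adjusted p = 0.749). Slc25a35, which shares that description, measured 2.75, 3.95 and 2.31 against 2.79, 2.14 and 2.41 FPKM at 3 months (log2 difference -0.20, adjusted p = 0.557). At 12 months it measured 4.39 and 4.06 against 4.20 and 1.68 FPKM, with 1 knockout-labelled library within the controls. Of its 50-base stretches 25.3% occurred, on either strand, in transcripts of other genes, mostly Rangrf. The ratio of Slc25a34 to Slc25a35 was 10.4 and 11.2 in the 12-month controls and 20.5 and 63.6 in the knockout-labelled libraries. Slc25a45 measured 3.06 and 3.86 against 2.32 and 2.21 FPKM at 12 months, both lower (ratio of means 0.655, log2 difference -0.44, SE 0.16, adjusted p = 0.356), and overlapped at 3 months at 1.52, 2.07 and 1.36 against 1.66, 1.55 and 1.49 FPKM. Slc25a53, on the X chromosome, measured 2.26 and 2.46 against 1.93 and 1.13 FPKM at 12 months, both lower (log2 difference -0.43, adjusted p = 0.462, and -0.65 without knockout replicate 1 and -0.20 without replicate 2). Slc25a47 overlapped at both ages, with estimates of -0.04 and -0.29, and measured 1.45 and 1.76 against 1.60 and 0.741 FPKM at 12 months. Of the 5 tested at 12 months 4 were estimated lower, under each scaling, with Slc25a34 the exception, and 3 without knockout replicate 2. At 3 months 4 of 4 were lower, but 2 of 4 without control replicate 2 and 2 of 4 without knockout replicate 2.

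**Figure D3:**
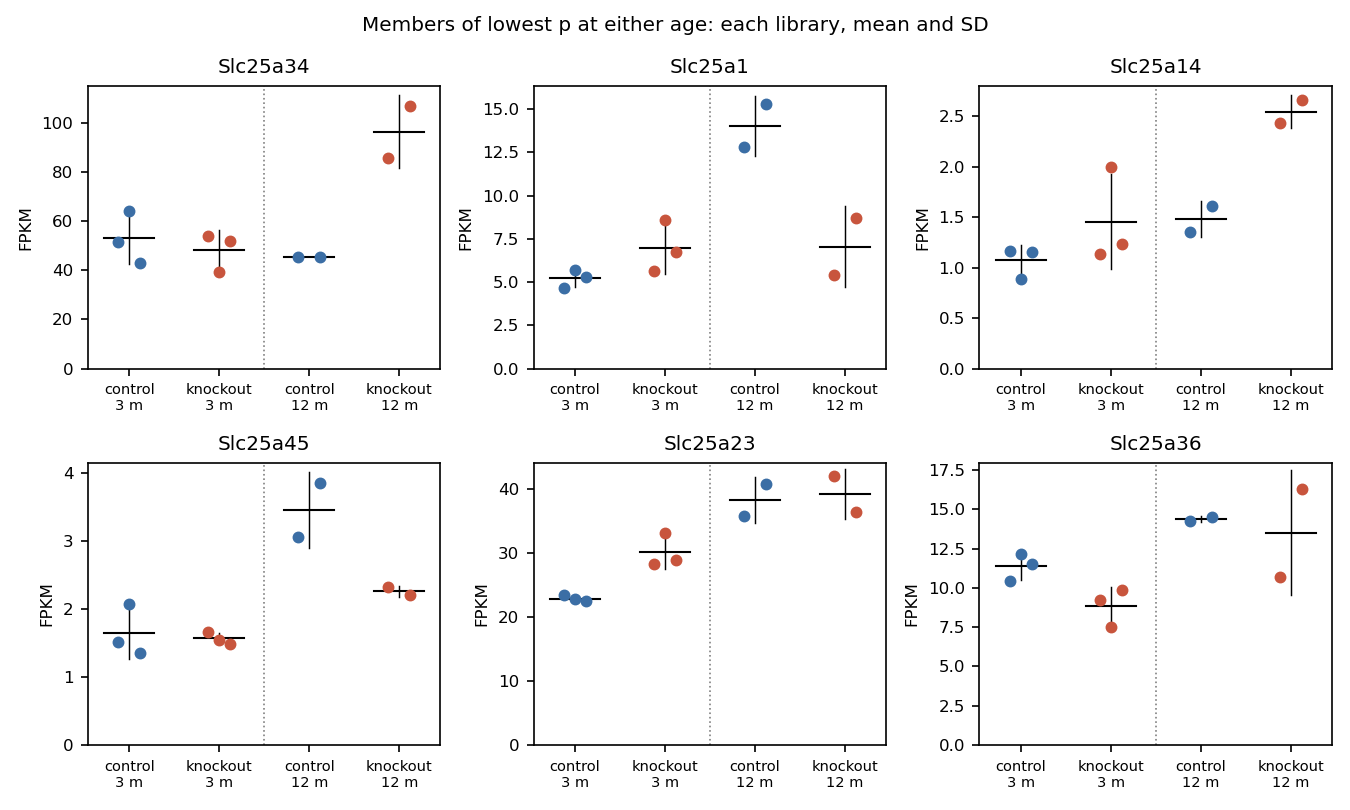
FPKM (vertical axis, from 0) of 6 members, the 4 of lowest p at 12 months and the 2 of lowest p at 3 months. Each dot is 1 library, with the mean (horizontal line) and SD (vertical line) of each label and age (n = 3 and 3 at 3 months, 2 and 2 at 12 months). Slc25a34 and Slc25a1 separate by label at 12 months (45.5 and 45.6 against 86.0 and 107, and 12.8 and 15.3 against 5.39 and 8.69), while Slc25a23 and Slc25a36 separate at 3 months only.

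Promoter sequence is shown for Slc25a34 and Slc25a1, the members with the largest estimate in either direction at 12 months. RefSeq promoter windows on GRCm38.p6 (250 bases before to 50 after the transcript start) matched 35 of the 46 members. The 250 bases before the start are printed 5′ to 3′ on the gene's own strand, with matches to the motifs CCAAT and CACGTG in capitals (a CCAAT on the opposite strand reads ATTGG), at chr4:141623835-141624084 (minus strand) and chr16:17928220-17928469 (minus strand).
Slc25a34: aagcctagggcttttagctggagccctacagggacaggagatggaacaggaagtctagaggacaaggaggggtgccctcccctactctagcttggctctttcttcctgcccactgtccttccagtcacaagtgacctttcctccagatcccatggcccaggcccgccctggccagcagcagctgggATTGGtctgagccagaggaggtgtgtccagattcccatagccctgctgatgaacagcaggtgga
Slc25a1: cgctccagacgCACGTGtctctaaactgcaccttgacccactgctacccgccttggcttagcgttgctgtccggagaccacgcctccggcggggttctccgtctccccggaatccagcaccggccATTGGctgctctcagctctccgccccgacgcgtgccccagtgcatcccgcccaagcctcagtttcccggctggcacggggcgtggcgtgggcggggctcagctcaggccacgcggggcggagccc
Slc25a34 held a CCAAT box at -64 to -60 from the start, and Slc25a1 held one at -125 to -121, another at 36 to 40 after the start, outside the stretch printed, and the E-box CACGTG at -239 to -234. Across members with a window, 19 of 35 genes (54.3%) held CCAAT and 7 of 35 (20%) held CACGTG on either strand, beside 41.1% and 8.09% of all 27025 genes in the table. The MEF2 element occurred in 2 of 35 (5.71%), beside 4.23% of all genes. The ERR element TNAAGGTCA (1.43% of all genes), the NRF1 motif (1.07%) and the sterol regulatory element (0.0999%) had no match in the windows of the 35. Both strands were searched, no motif contains another, and a match is a description of the letters only.

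Differences between labels were then compared between the ages, in a fit over all 10 libraries and the 11580 genes tested at both. No member was called, where 160 genes (1.38%) were. Slc25a1 had the lowest p, with a log2 difference that was 1.28 lower at 12 months than at 3 months (contrast -1.28, SE 0.29, adjusted p = 0.0618 by limma). Slc25a34 followed with 1.18 (SE 0.27, adjusted p = 0.0658). Adjusted p ranged over the alternative settings from 0.0123 to 0.293 for Slc25a1 and from 0.0261 to 0.271 for Slc25a34, with the same sign in each of 17. Slc25a10 came next with -0.51 (adjusted p = 0.224), then Slc25a33 with 0.74 (adjusted p = 0.347) and Slc25a23 with -0.35 (adjusted p = 0.373). The value of Slc25a33 was 0.23 without 12-month knockout replicate 1 and 1.26 (adjusted p = 0.0170) without replicate 2. Both Slc25a1 and Slc25a10 had estimates above 0 at 3 months and below 0 at 12 months. Since sex and genotype cannot be told apart at 12 months, none of these contrasts can be read as a difference by genotype alone.

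The 2 knockout-labelled libraries of 12 months differed from each other in these genes more than the controls did. On the log2(FPKM + 1) scale the median gap between the libraries of a label was 0.07 for the controls and 0.31 for the knockout-labelled libraries over the 38 members, and the latter was larger in 34 of 38. The libraries lay on opposite sides of the control mean for 15 members and on the same side for 23. Knockout replicate 1 had 24 of 38 members above the control mean and replicate 2 had 15, and the robust SD of the deviations was 0.18 in replicate 1 and 0.39 in replicate 2. Slc25a33 measured 14.8 FPKM in replicate 1 and 6.77 FPKM in replicate 2, beside 7.07 and 7.50 FPKM in the controls. Slc25a35, Slc25a29 and Slc25a13 were low in replicate 2 only, as for Slc25a13 at 55.9 and 36.9 FPKM beside 53.2 and 54.6 FPKM in the controls. With replicate 1 left out 10 members were called, 5 higher (Slc25a4, Slc25a11, Slc25a28, Slc25a34 and Slc25a39) and 5 lower (Slc25a13, Slc25a29, Slc25a35 and Slc25a53 among them), beside 31.9% of all genes. With replicate 2 left out 2 were called, Slc25a34 and Slc25a33 (log2 difference 0.93, adjusted p = 0.0449), beside 4.65%.

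**Figure D4:**
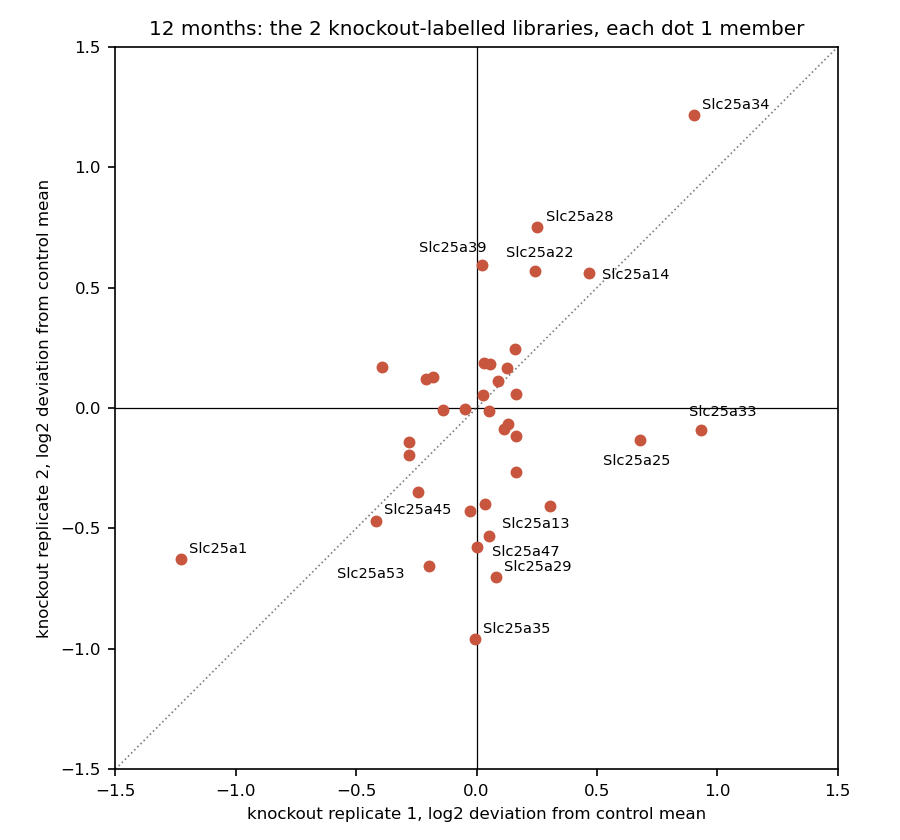
Deviation of 37 members from the mean of the 12-month controls, in log2(FPKM + 1), in knockout replicate 1 (horizontal axis) and knockout replicate 2 (vertical axis); the dotted line marks equal deviations and members past 0.45 in either library are named. Slc25a34 and Slc25a14 are high and Slc25a1 and Slc25a45 low in both, while Slc25a33 is high in replicate 1 only and Slc25a35 low in replicate 2 only.

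Other genes of mitochondrial transport were counted from a list of 33, of which 31 were listed in the tables. At 3 months 29 were tested and 0 were called, with 3 at an unadjusted p under 0.05, 24 estimated higher (82.8%) and a median of 0.18. Over all genes at that age 0.746% were called, 18.2% had such a p (10.3% of the list), 65% were higher and the median was 0.09. Those of the route by which carriers are imported (Tomm70a, the small Tim chaperones and the TIM22 complex) were higher in 8 of 9, with Tomm70a the exception (log2 difference -0.12). Timm10b measured 54.3, 44.1 and 52.3 against 66.5, 82.2 and 62.0 FPKM (log2 difference 0.47, adjusted p = 0.177 by limma). Timm13 measured 52.8, 45.3 and 44.0 against 62.3, 82.5 and 57.5 FPKM (0.49, adjusted p = 0.185). Knockout replicate 2 was the highest library for both. Smdt1, a subunit of the calcium uniporter, had the lowest p of the list at 189, 171 and 169 against 238, 278 and 240 FPKM (0.51, adjusted p = 0.122). At 12 months 31 were tested, 18 were higher (58.1%, beside 51.5% of all genes), with a median of 0.06 beside 0.01, and 3 had an unadjusted p under 0.05 (9.68%, beside 13.6%). Import genes were higher in 3 of 9, and 1 gene of the list was called, beside 0.395% of all genes. That gene was Ucp1, the uncoupling protein of brown fat, at 8.80 and 8.01 FPKM in the controls and listed at 0 in both knockout-labelled libraries (adjusted p = 0.0130, and 0.0721 with no filter on low values). Without 1 of the controls its adjusted p was 0.119 or 0.134. It passed the filter on low values only through the controls, so its call is not read as a result. Adipocyte markers were lower in 6 of 7 tested at that age, with 2 called, while the summed level of the list was 658 to 661 FPKM in the controls and 715 to 1372 FPKM in the knockout-labelled libraries. Adipoq measured 11.0 and 7.46 against 0.566 and 1.52 FPKM, and the brown adipocyte list, which holds Ucp1 itself, had 2 of 4 tested higher and 2 lower (1 called, Ucp1, median 0.03), with sums of 3046 to 3106 against 2620 to 3428 FPKM. The part of fat tissue in the Ucp1 values was not tested. Ucp3, the uncoupling protein of muscle and heart and a relative of the family under another symbol, measured 9.47 and 9.44 FPKM in the 12-month controls and 27.1 and 46.1 FPKM in the knockout-labelled libraries. Both were higher, with a ratio of means of 3.87 and a log2 difference of 1.798 (SE 0.28, adjusted p = 0.174).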

How the data were processed

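RNA levels of mouse hearts (10 libraries) were read from 2 tables of FPKM values, 1 per age, deposited by the authors, with groups and replicate numbers from the labels. Per the submitters' processing notes FastQC, TopHat2 2.1.0, STAR 2.5.1b, Cufflinks 2.1.1, mm10 and GRCm38 were used, without stated roles. Per the labels' protocols poly(A) RNA was made into strand-specific libraries at 3 months, and the 12-month libraries were made at another institute. Values of 69 repeated identifiers were added up at 3 months, leaving 46786 genes, against 46977 at 12 months. By its name the 12-month table excludes outliers, which are not described. Identifiers were matched to GENCODE M21 without their version (46297 and 46484 genes).

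Tested genes averaged 1 FPKM or more at that age, and the test was made on log2(FPKM + 1) with limma 3.58.1 in R 4.3.3 (empirical Bayes with a trend), with Benjamini-Hochberg adjustment over all genes tested. Fold changes on that scale understate those of low genes. Ages were compared by an interaction contrast with 4 group means. Depth and fragment length were searched for the pair that put most low values within 0.05 of whole reads. At 12 months the best share was 84.5% to 85.6%, at 21.9 to 31.4 M reads, so that depth is inferred from the search. At 3 months the share was 18.2% to 31.1%, and depth is unknown. On simulated data with 200 changed genes, 58.8% of 1.5-fold and 100% of 2-fold changes were recovered at 3 months (12200 genes), and 0% and 49.2% at 12 months (13179 genes). The simulation drew gene spreads toward the median spread, gave both labels the same spread and changed only genes above about 5 FPKM. Recovery for lower genes, or for the unequal spread of the 12-month labels, was therefore not measured.

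Members, role groups and gene lists were chosen with earlier results of these data known. Members described with every library value were, per role group and age, the one of highest level, the 2 of lowest p, and the 3 largest differences in either direction among those whose groups did not overlap. Slc25a3, Slc25a13, Slc25a15, Slc25a16, Slc25a24, Slc25a25, Slc25a31, Slc25a37, Slc25a40, Slc25a43, Slc25a44, Slc25a47 and Slc25a51 fall outside that rule, and those given with values were chosen after these were seen. A member that counts and medians include is not reported here on its own. Alternatives were a pseudocount of 0.1, no filter, a filter of 5 FPKM, median-of-ratios and TPM scaling, no trend, the replicate number as a block, and leaving out each library. The check of repeated sequence used stretches of 50 bases of GENCODE M21 transcripts. Matches on either strand were counted, so stretches shared with a gene on the opposite strand are included.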

Additional observations from a re-analysis of the deposited data

Results flagged for a closer look

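The difference between labels in Ucp3 differed between the ages. It was -0.42 on the log2(FPKM + 1) scale at 3 months, with 28.6, 43.7 and 31.4 FPKM in the controls and 28.8, 20.5 and 26.8 FPKM in the knockout-labelled libraries (adjusted p = 0.276 by limma), and 1.798 at 12 months. Sex and genotype cannot be told apart at 12 months, so the contrast between ages cannot be read as a difference by genotype alone. The contrast of 12 months minus 3 months was 2.22 (SE 0.34, adjusted p = 0.0125 by limma over 11580 genes). Its adjusted p was 0.0624 with the replicate block and 0.0740 and 0.0743 without the first and the second 12-month control, and it ranged from 0.00119 to 0.0743 over 17 alternatives, with the same sign in each.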

How the results depend on the processing

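At 3 months 0 members were called under each of 13 alternatives, and all 456 member values kept their call, while genes called over the table numbered 91 (76 higher, 15 lower), 10 with no filter, 142 with TPM scaling (113 and 29), 61 with median-of-ratios scaling (43 and 18) and 29 with the replicate block, and 24 to 77 with 1 library left out, lowest without control replicate 2. Of 407 member values at 12 months all stayed uncalled outside the 2 fits that leave out a knockout-labelled library. Slc25a37, uncalled under every setting, was -0.05 and turned to 0.30 without knockout replicate 2 (range over libraries left out -0.41 to 0.30). Such changes of sign with a library left out numbered 22 at that age, over 15 members. Members called at 12 months ranged from 0 to 10 with 1 library left out, and genes called over the table from 0, without either control, to 4208, beside 52 for all libraries, 17 with no filter and 40 with the replicate block. The family median at 12 months was -0.32 with TPM scaling (all genes -0.27) and with 1 library left out from -0.077, without knockout replicate 1, to 0.043, without knockout replicate 2. For the difference between ages 1 member was called with median-of-ratios scaling (Slc25a34, 1.26, adjusted p = 0.0400 by limma) and 1 with TPM scaling (Slc25a1, -1.49, adjusted p = 0.0435), and 0 to 2 with 1 library left out: Slc25a34 without 12-month knockout replicate 1, and Slc25a1 and Slc25a33 without replicate 2. Estimates of uncalled members changed sign in 8 cases at 3 months and 12 at 12 months under rescaling or other settings, and in 25 and 22 cases when a library was left out. Whether the replicate numbers pair the libraries is not stated. Same-numbered deviations correlated at -0.12, -0.46 and -0.14 at 3 months and -0.0063 at 12 months. Deviations within a label sum to 0, and with 2 libraries they mirror each other, so these values cannot decide it. The replicate block gave 0 members called at either age and 0 for the difference between ages. Each label had 2 libraries at 12 months, and the depth at 3 months is unknown.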
